A study of Homo sapiens with 8 samples.

Results

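The WNT pathway, from its ligands and receptors to its feedback genes, was examined in hiPS-CMs after hypoxia/reoxygenation (H/R). The genes are all protein-coding genes of the deposited table whose symbol is WNT or FZD followed by a number, together with 19 named coreceptors, transducers, inhibitors and target genes. In all, 48 of the 60658 listed genes met this rule. Of these, 19 were ligands, 12 receptors, 6 secreted inhibitors and 2 parts of the cytoplasmic machinery. The others were 2 TCF transcription factors (TCF7L1 and TCF7L2) and 7 feedback or target genes, with which TCF7 and LEF1 were counted. RNA sequencing covered 4 H/R libraries and 4 H/R+BA libraries. All were human iPSC-derived cardiomyocytes, of the line that the labels call 235G1 and the paper 253G1. In both groups, hypoxia at 1% O2 lasted 12 h, without serum and with little glucose, and was followed by 12 h of reoxygenation. During reoxygenation the H/R cells had regular medium with serum. In the H/R+BA cells it was replaced by medium conditioned by brown adipocyte (BA) sheets, which were made from rat cells, and the sources do not say whether serum was in it at that step. According to the methods, induction of the cardiomyocytes had used growth factors and the WNT inhibitors IWR-1 and IWP-2, so the cells of both groups had passed through WNT inhibition before the experiment. The labels name no separate differentiations or days, and a p-value therefore measures the spread between these 8 libraries, which may be technical.

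WNT proteins are secreted lipid-modified ligands that bind Frizzled receptors and, in the branch that acts through beta-catenin, the coreceptors LRP5 and LRP6. Receptor binding stops a cytoplasmic complex built on AXIN from marking beta-catenin (CTNNB1) for destruction, and beta-catenin then joins TCF and LEF factors on target genes, several of which are themselves inhibitors of the pathway. Other ligands, with WNT5A and WNT11 the usual examples, act largely without beta-catenin on cell polarity and movement. In the heart, beta-catenin signaling favours early mesoderm and later restrains the cardiomyocyte fate, which is why inhibitors of WNT are used to make cardiomyocytes from iPSCs.

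Libraries held 39854257 to 53308952 reads. Levels are the authors' normalized FPKM, fragments per kilobase of transcript scaled to library size, and can be compared between genes of different length. Differences were tested with limma on log2(FPKM + 1) over the 14334 genes that reached 1 FPKM in at least 4 libraries, and a gene is called when its Benjamini-Hochberg adjusted p, two-sided, is under 0.05. A log2 change here is H/R+BA over H/R on that scale, with its standard error (SE), which understates the change where FPKM is low. Cardiomyocyte markers were high throughout, with 1 of 14 called higher (summed level 14866 to 23150.5 against 16836 to 20793 FPKM). Calls among markers of other cells are given beside the background, where 13.7% of all genes tested were called higher and 11.1% lower. Called higher were 4 of 9 tested fibroblast markers (44.4%), with overlapping sums (489 to 773 against 706 to 916 FPKM). Of 7 tested endothelial markers 5 were higher (71.4%, 83.1 to 101 against 121 to 144 FPKM). Of 4 tested pluripotency markers 3 were higher (75%, 5.74 to 6.91 against 13.999 to 17.2 FPKM). Of 2 tested macrophage markers 2 were higher (4.41 to 9.34 against 11.8 to 16.4 FPKM). In these lists 1, 3, 3 and 4 further markers were not tested. TEK and LIN28A passed the filter only through the H/R+BA libraries, where they were high, so their calls are no support for a difference. Of 4 tested epicardial markers 1 was higher (25%, 168 to 318 against 334 to 411 FPKM), and 4 others were not tested. The called gene was the keratin KRT19, which made up most of this sum (163 to 312 FPKM in H/R, 328 to 404 FPKM in H/R+BA). TBX18, ALDH1A2 and BNC1 were not called. Of 8 smooth muscle and pericyte markers 2 were higher (25%) and 1 lower (12.5%), with overlapping sums (1949.7 to 2782 against 1887 to 2152 FPKM). The lower 1, MYH11, passed the filter only through the H/R libraries. Of 8 endoderm and hepatic markers 1 was higher (12.5%), with overlapping sums (626 to 1677 against 838 to 1349 FPKM). Among single markers, PECAM1 (0.944 ± 0.129 and 2.84 ± 0.954 FPKM), CDH5 (3.41 ± 0.905 and 7.07 ± 1.03 FPKM), POU5F1 (2.33 ± 0.200 and 6.02 ± 0.523 FPKM), LIN28A (0.736 ± 0.142 and 2.67 ± 0.277 FPKM) and CD68 (5.58 ± 1.67 and 11.4 ± 1.97 FPKM; SD, n = 4) were called higher. The endothelial markers KDR and ESAM and the pluripotency marker DNMT3B were tested and not called. CLDN5, TCF21, NANOG, PTPRC and AIF1 were at 0 to 0.199 FPKM, each with a 0 in at least 1 library. The macrophage markers CD14 (0.0703 to 0.237 FPKM) and CD163 (0.0441 to 0.132 FPKM) were not tested. These marker differences stand beside every result given here, and their part in it was not tested. In bulk cultures, fewer cells of a type and less RNA per cell cannot be told apart.

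The ligand gene WNT11 was higher in H/R+BA, and the receptor genes FZD1, FZD6 and FZD8 and the transcription factor gene TCF7 were lower. Of the 48 genes 28 passed the filter. Of these, 1 was called higher and 4 lower, which is 17.9% of the members tested, where 24.7% of all 14334 genes were called. The share lay below this background, and 12 members had an unadjusted p under 0.05. Their median log2 change was −0.094 (0.0086 over all genes tested), with 18 members below 0 and 10 above. In 9 members (32.1%) the groups did not overlap, against 28.6% of all genes tested. On the deposited normalized counts in place of FPKM, 2 members were called higher and 9 lower. There 2350 of all 14334 genes were called higher and 2595 lower (34.5% called). On that scale the share of members called lay above the background, not below it.

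**Figure D1:**
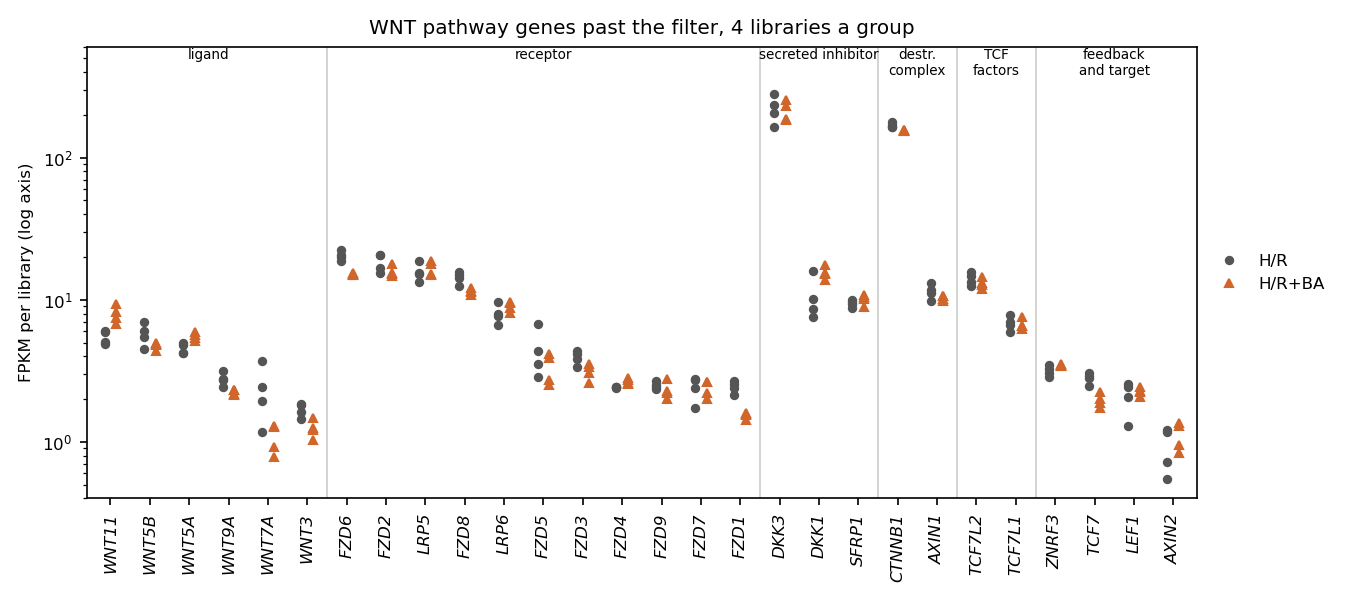
FPKM of the 28 WNT pathway genes past the filter, on a log axis, with 1 point for each of the 4 H/R (circles) and 4 H/R+BA (triangles) libraries, ordered by role and level. DKK3 and CTNNB1 lie above 100 FPKM in every library, all ligands lie below 10 FPKM, and the groups stand apart for WNT11, FZD6, FZD8, FZD1 and TCF7, among others.

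Ligand genes were expressed at low levels, and 13 of the 19 did not pass the filter. The 6 that did were WNT11, WNT5B, WNT5A, WNT9A, WNT7A and WNT3. WNT11 (ENSG00000085741), a ligand with roles in heart development, had 6.01, 4.90, 5.95 and 5.06 FPKM in H/R and 8.21, 9.27, 6.77 and 7.49 FPKM in H/R+BA. Every H/R+BA library thus lay above every H/R library. The mean rose from 5.48 ± 0.581 to 7.94 ± 1.06 FPKM (SD, n = 4), a log2 change of 0.46 (SE 0.10; adjusted p = 0.0108). The call held when each library was left out in turn (adjusted p = 0.0114 to 0.0334). The gene (chr11:76186325-76210736, minus strand, GRCh38) shares 204 exonic bases with a noncoding gene on the opposite strand, ENSG00000254933, whose mean was 0.0727 FPKM in H/R and 0.136 FPKM in H/R+BA.

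WNT5A, which like WNT11 acts mainly without beta-catenin, had 4.99, 4.25, 4.81 and 4.20 FPKM in H/R and 5.08, 5.41, 5.65 and 5.90 FPKM in H/R+BA. The groups did not overlap, but the log2 change of 0.23 (SE 0.080) did not pass the threshold (adjusted p = 0.0642), and on normalized counts it was 0.081 (adjusted p = 0.569). WNT5B, its close paralog, had 5.73 ± 1.05 and 4.74 ± 0.271 FPKM (SD, n = 4; adjusted p = 0.182), with overlapping groups. It was called lower when H/R replicate 4 was left out (adjusted p = 0.0463).

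WNT7A had 1.93, 3.73, 1.17 and 2.44 FPKM in H/R and 0.789, 0.923, 1.30 and 1.27 FPKM in H/R+BA. H/R replicate 2 stood highest, and H/R replicate 3 lay within the range of the H/R+BA libraries. The log2 change of −0.63 (SE 0.21) missed the threshold (adjusted p = 0.0549), and it passed when H/R replicate 3 was left out (adjusted p = 0.0116) and on normalized counts (−1.01, adjusted p = 0.0315). WNT9A (2.77 ± 0.292 and 2.23 ± 0.0964 FPKM, SD, n = 4; log2 change −0.22, adjusted p = 0.0809) did not overlap between the groups. WNT3, a ligand of the beta-catenin branch, had 1.68 ± 0.189 and 1.24 ± 0.186 FPKM (SD, n = 4; log2 change −0.26, adjusted p = 0.0777), with overlapping groups. Both were past the threshold on normalized counts (adjusted p = 0.0244 for WNT9A and 0.0232 for WNT3).

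Of the 13 ligand genes below the filter, 9 stayed under 0.25 FPKM in every library, namely WNT1, WNT2, WNT3A, WNT6, WNT7B, WNT8A, WNT8B, WNT9B and WNT16. WNT8A was listed at 0 in all 8. WNT2B, WNT10A and WNT10B had values between 0.151 and 0.695 FPKM. WNT4, a ligand known from kidney and gonad development, had 0.796, 1.05, 0.647 and 1.03 FPKM in H/R and 0.598, 0.445, 0.463 and 0.424 FPKM in H/R+BA. Its groups did not overlap, and the H/R+BA mean was 0.548 of the H/R mean, at 41.6 to 100.04 normalized counts a library. WNT4 reached 1 FPKM in only 2 libraries and was not tested. With a filter of 10 normalized counts in every library in place of 1 FPKM, its log2 change of −0.34 was past the threshold (adjusted p = 0.0174), and with no filter it was not (adjusted p = 0.0691).

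The 19 ligand genes summed to 25.1 ± 1.36 FPKM in H/R and 25.02 ± 0.623 FPKM in H/R+BA (SD, n = 4). WNT11 made up 19.02% to 24.01% of it in H/R and 27.4% to 35.8% in H/R+BA. WNT11, WNT5A and WNT5B together made up 56.7% to 67.7% of it in H/R and 70.2% to 74.99% in H/R+BA. WNT7A made up 4.70% to 14.5% of it in H/R and 3.21% to 5.26% in H/R+BA. The ranges of WNT11 and of the 3 ligands together did not overlap between the groups, and those of WNT7A did. These shares have 1 denominator, so that a higher share of 1 ligand lowers the others, and they were not tested.

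**Figure D2:**
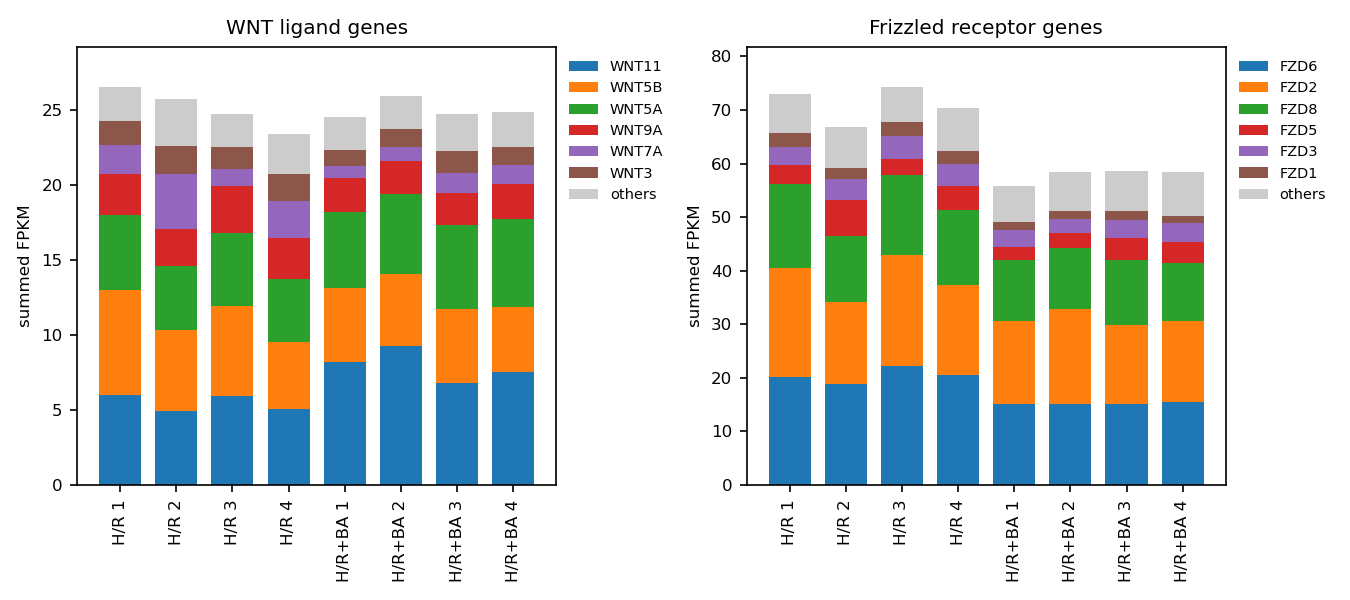
Summed FPKM in each library, stacked by gene, for the 19 WNT ligand genes (left) and the 10 Frizzled genes (right). On each side 6 genes are in colour and the others in grey. The coloured Frizzled genes include FZD1, which was called but is not among the most abundant. The ligand sums lie between 23.4 and 26.6 FPKM in all 8 libraries, with a wider WNT11 part in the H/R+BA libraries, and the Frizzled sums lie at 66.9 to 74.3 FPKM in the H/R and 55.8 to 58.6 FPKM in the H/R+BA libraries.

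Of 9 Frizzled genes tested, which encode the membrane receptors of WNT proteins, 3 were called lower (33.3%) and 0 higher, where 11.1% of all genes tested were called lower and 13.7% higher. Of the 9, 8 had a log2 change below 0, with a median of −0.26, and 4 had an unadjusted p under 0.05. FZD6 had 20.1, 18.7, 22.3 and 20.5 FPKM in H/R and 14.997, 15.03, 15.1 and 15.5 FPKM in H/R+BA. The H/R+BA libraries lay close together and below every H/R library. The log2 change was −0.40 (SE 0.061; adjusted p = 0.00187). FZD8 had 15.6, 12.4, 15.04 and 14.1 FPKM in H/R and 11.4, 11.4, 12.1 and 10.8 FPKM in H/R+BA, again without overlap. It was lower by a log2 change of −0.30 (SE 0.076; adjusted p = 0.02005). This call was lost without H/R replicate 1 (0.0523) and without H/R+BA replicate 1, 2 or 4 (0.05003, 0.0504 and 0.0569), values being the adjusted p.

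FZD1 was expressed at a lower level, with 2.56, 2.12, 2.67 and 2.41 FPKM in H/R and 1.54, 1.56, 1.60 and 1.43 FPKM in H/R+BA. The groups did not overlap, and the H/R+BA mean was 0.629 of the H/R mean. The log2 change was −0.44 (SE 0.084; adjusted p = 0.00565). The calls of FZD1 and FZD6 held when each library was left out (adjusted p up to 0.0188 and 0.00834). FZD6 shares 138 exonic bases with the opposite-strand BAALC-AS1 (4.56 and 5.15 FPKM). FZD1 lies at chr7:91264433-91271326, plus strand, and FZD8 at chr10:35638247-35642296, minus strand. Their promoters, the 250 bases before the start as given by RefSeq (GRCh38.p14), are shown because both receptor genes fell. They were searched on both strands for the TCF/LEF motif in the forms CTTTGAA or CTTTGAT and, with the other sixth base, CTTTGTA or CTTTGTT, which do not overlap one another, and they held none, so no base stands in capitals.
FZD1, chr7:91264183-91264432, plus strand: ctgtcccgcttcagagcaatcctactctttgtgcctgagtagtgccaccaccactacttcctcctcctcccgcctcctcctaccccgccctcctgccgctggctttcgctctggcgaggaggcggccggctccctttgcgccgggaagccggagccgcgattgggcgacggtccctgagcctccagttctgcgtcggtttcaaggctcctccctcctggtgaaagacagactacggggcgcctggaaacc
FZD8, chr10:35642297-35642546, minus strand: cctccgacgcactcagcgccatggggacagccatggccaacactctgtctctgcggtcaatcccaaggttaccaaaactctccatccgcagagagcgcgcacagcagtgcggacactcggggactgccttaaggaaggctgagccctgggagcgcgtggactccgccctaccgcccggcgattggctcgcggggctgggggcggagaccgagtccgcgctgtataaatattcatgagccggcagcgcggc

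Other Frizzled genes did not pass the threshold. FZD2 had 18.3 ± 2.68 and 15.8 ± 1.37 FPKM (adjusted p = 0.200), FZD3 had 3.94 ± 0.423 and 3.14 ± 0.402 FPKM (adjusted p = 0.0911), and FZD5 had 4.39 ± 1.70 and 3.32 ± 0.809 FPKM (adjusted p = 0.348; limma, SD, n = 4). All 3 had overlapping groups, and H/R replicate 2 held the highest FZD5 level, at 6.76 FPKM. On normalized counts FZD3 was called lower (log2 change −0.57, adjusted p = 6.02e-04), a larger difference than the −0.26 on FPKM. FZD7 and FZD9 had log2 changes of −0.0096 and −0.080 (adjusted p = 0.966 and 0.556), FZD7 with a sign that changed when single libraries were left out. FZD4, which also serves the ligand-like protein norrin, was the 1 Frizzled gene above 0, at 2.40 to 2.45 FPKM in H/R and 2.55 to 2.82 FPKM in H/R+BA, without overlap (log2 change 0.10, adjusted p = 0.318). FZD4 shares 1399 exonic bases with PRSS23 on the opposite strand, a gene at a mean of 261 FPKM in H/R and 222 FPKM in H/R+BA. The library kit keeps the strand, but the sources do not state whether the counting used it. FZD10 was at 0.00960 to 0.0963 FPKM and was not tested.

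The 10 Frizzled genes summed to 72.9, 66.9, 74.3 and 70.3 FPKM in H/R and 55.8, 58.3, 58.6 and 58.4 FPKM in H/R+BA. The mean sum decreased by 18.7%. FZD2, FZD6 and FZD8 made up 69.4% to 78.0% of it in H/R and 70.9% to 76.0% in H/R+BA, with overlapping ranges. Neither coreceptor gene was called. LRP5 had 15.6 ± 2.27 and 16.7 ± 1.87 FPKM (SD, n = 4; log2 change 0.095, adjusted p = 0.553). LRP6 had 7.98 ± 1.25 and 8.97 ± 0.728 FPKM (SD, n = 4), with a log2 change of 0.16 that was −0.017 on normalized counts (adjusted p = 0.295 and 0.874).

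**Figure D3:**
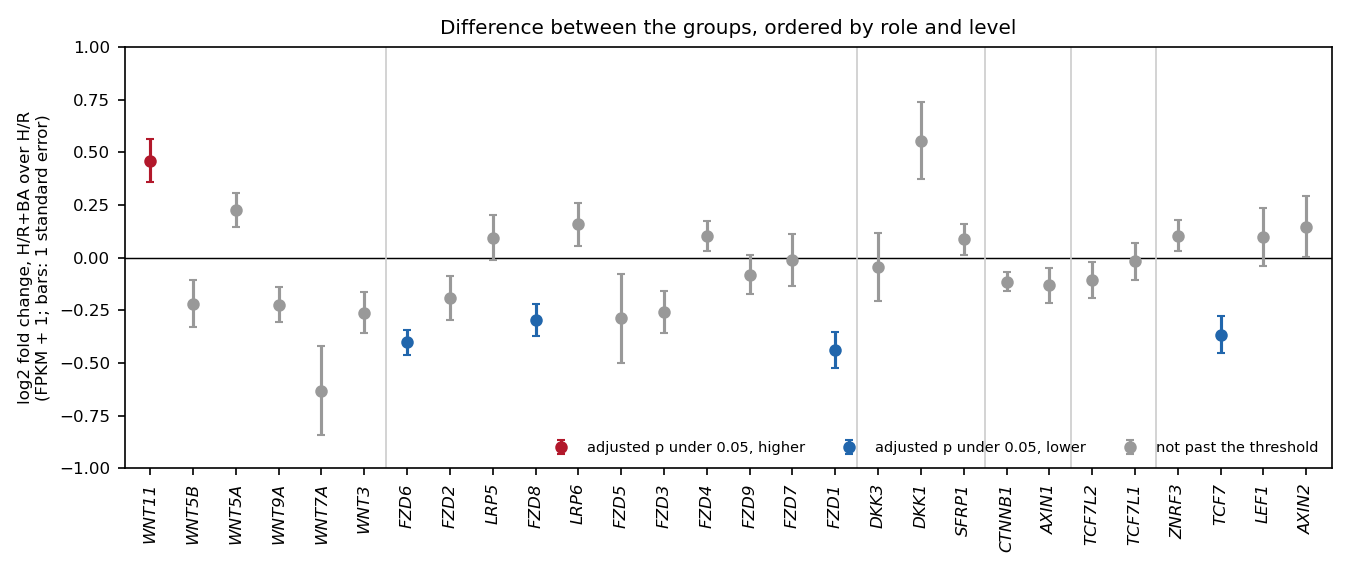
Log2 fold change (H/R+BA over H/R, FPKM + 1) of the 28 tested members with 1 standard error, ordered by role and level as in the plot of levels. Past the threshold are WNT11 at 0.46 and, below 0, FZD6 at −0.40, FZD8 at −0.30, FZD1 at −0.44 and TCF7 at −0.37, while DKK1 at 0.55 and WNT7A at −0.63 have larger sizes with larger errors.

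Beta-catenin itself was not called. CTNNB1, the second most abundant member, had 165, 177, 163 and 169 FPKM in H/R and 154, 154, 156 and 158 FPKM in H/R+BA. Its groups did not overlap, and the log2 change of −0.11 (SE 0.045) did not pass the threshold (adjusted p = 0.0895). AXIN1, the scaffold of the destruction complex, had 11.4 ± 1.33 and 10.3 ± 0.410 FPKM (SD, n = 4; adjusted p = 0.278). Of these 2 genes 0 were called by limma and 1 had an unadjusted p under 0.05.

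TCF7, which encodes a beta-catenin partner and is also a target of the pathway, fell. It had 3.05, 2.83, 2.49 and 2.92 FPKM in H/R and 1.88, 1.74, 2.01 and 2.24 FPKM in H/R+BA, without overlap. The log2 change was −0.37 (SE 0.089; adjusted p = 0.0156), and the call held when each library was left out (adjusted p up to 0.0487). TCF7 (chr5:134114681-134151865, plus strand) shares 210 exonic bases with SKP1 on the opposite strand, which had a mean of 402 FPKM in H/R and 380.2 FPKM in H/R+BA (log2 change −0.080, adjusted p = 0.326), so that reads of the overlap cannot be assigned with certainty. The related genes TCF7L1 (6.82 ± 0.754 and 6.72 ± 0.560 FPKM) and TCF7L2 (14.1 ± 1.46 and 13.02 ± 1.07 FPKM) did not pass the threshold (limma, SD, n = 4; adjusted p = 0.907 and 0.389). Of these 2, 0 had an unadjusted p under 0.05, and on normalized counts TCF7L2 was called lower (log2 change −0.23, adjusted p = 0.0487). LEF1, the remaining gene of this factor family, had 2.56, 1.29, 2.05 and 2.41 FPKM in H/R and 2.28, 2.24, 2.06 and 2.44 FPKM in H/R+BA (adjusted p = 0.638). H/R replicate 2 stood low, and the groups overlapped.

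Feedback genes of the beta-catenin branch other than TCF7 were not called. AXIN2, a widely used readout of beta-catenin activity, had 1.21, 1.18, 0.723 and 0.545 FPKM in H/R and 1.35, 0.833, 1.29 and 0.951 FPKM in H/R+BA (log2 change 0.15, SE 0.14, adjusted p = 0.490). The groups overlapped, and AXIN2 reached 1 FPKM in only 4 libraries. It shares 1316 of its 5197 exonic bases with a protein-coding gene on the same strand, ENSG00000266076 (0.0442 FPKM in H/R and 0 in H/R+BA). Reads of that overlap cannot be assigned with certainty. ZNRF3, a ubiquitin ligase that removes Frizzled receptors from the cell surface, had 3.15 ± 0.255 and 3.45 ± 0.0552 FPKM (SD, n = 4; log2 change 0.11, adjusted p = 0.336; −0.064 on normalized counts). Its partner RNF43 was at 0.523 to 1.06 FPKM, NKD1, an inhibitor of Dishevelled, at 0.150 to 0.579 FPKM, and LGR5, a receptor of R-spondins, at 0.216 to 0.448 FPKM over the 8 libraries, and these 3 were not tested. SP5 and NOTUM, further targets picked after their values were seen, were also below the filter, at 0.112 to 0.395 and 0.0967 to 0.429 FPKM.

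Secreted inhibitors included the most abundant member. DKK3, of the Dickkopf family by sequence, had 236, 164, 282 and 206 FPKM in H/R and 229, 253, 184 and 186 FPKM in H/R+BA. The spread within a group exceeded the difference between the means (log2 change −0.045, SE 0.16, adjusted p = 0.868), whose sign changed when single libraries were left out. DKK3 shares 5681 exonic bases with USP47 on the opposite strand (27.3 and 26.8 FPKM). DKK1, a soluble blocker of LRP5 and LRP6, had 10.2, 8.66, 7.59 and 15.9 FPKM in H/R and 17.6, 15.3, 13.8 and 15.3 FPKM in H/R+BA. H/R replicate 4 lay within the range of the H/R+BA libraries, and the other H/R replicates lay below it. The log2 change of 0.55 (SE 0.18) did not pass the threshold (adjusted p = 0.0516). It passed without H/R replicate 4 (0.75, adjusted p = 0.00329) and on normalized counts (0.51, adjusted p = 0.0284), and adjusted p was 0.0717 to 0.126 without any other single library. SFRP1, a decoy with a Frizzled-like domain, had 9.38 ± 0.521 and 10.05 ± 0.796 FPKM (SD, n = 4; adjusted p = 0.409). Of these 3 genes 0 were called by limma, with 1 at an unadjusted p under 0.05. DKK2, FRZB and SFRP2 were not tested, at 0.120 to 0.534, 0.217 to 0.419 and 0 to 0.0741 FPKM.

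The promoters of DKK1 and of the downstream start of TCF7 are shown because DKK1 is a known target of beta-catenin and TCF7 fell, and because each held a form of the TCF/LEF motif, in capitals. In DKK1, CTTTGAA and CTTTGTT begin 95 and 76 bases before the start. In TCF7, CTTTGTT lies on the opposite strand, its match beginning 50 bases before the start, and the upstream start of the gene held none. RefSeq promoters were matched by symbol for 32 of the 48 members, with 39 starts in all. Of these starts 3 (7.69%) held any of the 4 forms in the 250 bases before the start, the other being a start of TCF7L2, and 12.0% of 35116 promoters of all genes did. A match is a description of the sequence and not evidence of binding.
DKK1, chr10:52314031-52314280, plus strand: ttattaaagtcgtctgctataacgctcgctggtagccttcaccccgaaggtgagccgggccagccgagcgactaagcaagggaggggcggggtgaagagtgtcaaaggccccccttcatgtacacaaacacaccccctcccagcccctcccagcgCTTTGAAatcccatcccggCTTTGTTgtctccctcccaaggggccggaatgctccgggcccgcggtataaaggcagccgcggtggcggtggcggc
TCF7, chr5:134123368-134123617, plus strand: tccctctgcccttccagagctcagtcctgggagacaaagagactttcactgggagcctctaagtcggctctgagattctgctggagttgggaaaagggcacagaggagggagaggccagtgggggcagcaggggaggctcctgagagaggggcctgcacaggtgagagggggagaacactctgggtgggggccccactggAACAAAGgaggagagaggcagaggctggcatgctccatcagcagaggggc

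Other genes of the pathway, from 8 lists written from textbook knowledge, were called at a share near the background. Of 107 genes listed 87 were tested, and 15 were higher and 6 lower (24.1% called against 24.7% of all genes), with a median log2 change of 0.00018. On normalized counts 15 were higher and 18 lower, where 34.5% of all genes tested were called. PORCN, the enzyme that attaches the lipid to WNT proteins, rose (9.36 ± 0.969 and 12.99 ± 1.41 FPKM, SD, n = 4; log2 change 0.43, adjusted p = 0.00918). It was 1 of 2 tested genes of WNT secretion. The other, WLS, named here after its values were seen, was not called (55.3 ± 7.39 and 64.3 ± 7.58 FPKM, SD, n = 4; log2 change 0.22, adjusted p = 0.176). Among R-spondins, secreted proteins that keep Frizzled receptors on the surface, and their receptors, RSPO4 rose and LGR4 fell, of 3 tested. That is 66.7% called, and 3 more of this list were not tested. RSPO4 had 1.05 to 1.34 FPKM in H/R and 2.35 to 2.94 FPKM in H/R+BA (log2 change 0.73, adjusted p = 7.93e-04). LGR4 had 28.6 to 42.8 FPKM in H/R and 20.4 to 23.4 FPKM in H/R+BA (log2 change −0.57, adjusted p = 0.00688).

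Of 15 other secreted or membrane inhibitors listed, 9 were not tested. Of the 6 tested, 4 were higher (66.7%, where 13.7% of all genes tested were called higher) and 0 lower. SOST, a blocker of LRP5 and LRP6 known from bone, had 0.411 to 0.903 FPKM in H/R and 1.79 to 3.16 FPKM in H/R+BA (log2 change 0.98, SE 0.15, adjusted p = 0.00200). It passed the filter only through the H/R+BA libraries, where it was high, so its place among the 4 is no support for that share. KREMEN2, a receptor of Dickkopf proteins, had 0.928 to 1.40 FPKM in H/R and 2.33 to 3.52 FPKM in H/R+BA (log2 change 0.85, SE 0.12, adjusted p = 0.00139). SFRP4 and KREMEN1 had log2 changes of 0.39 and 0.32 (adjusted p = 0.0277 and 0.0479). In terms of adjusted p, the call of SFRP4 was lost without H/R replicate 3 or 4 (0.0617 and 0.0572) and without H/R+BA replicate 1, 3 or 4 (0.0686, 0.0755 and 0.0617) and with no filter (0.0858). That of KREMEN1 was lost without H/R replicate 1, 2 or 4 (0.0586, 0.0906 and 0.0984) and without H/R+BA replicate 1, 2, 3 or 4 (0.0925, 0.115, 0.108 and 0.0704), with no filter (0.108), with the filter of 10 normalized counts (0.0550) and with median-ratio scaling (0.0556).

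Of 23 tested cytoplasmic transducers and parts of the destruction complex 3 were called (13.04%, where 24.7% of all genes tested were). This share lay below the background, and 20 genes of the list were not called. NKD2 and CSNK1A1 rose and DACT1 fell. NKD2, a paralog of NKD1, had 0.971 to 1.32 FPKM in H/R and 2.27 to 2.57 FPKM in H/R+BA (log2 change 0.67, adjusted p = 9.44e-04). DACT1, a regulator of Dishevelled, had 32.1 to 33.8 FPKM in H/R and 21.8 to 25.7 FPKM in H/R+BA (log2 change −0.44, adjusted p = 0.00123). CSNK1A1, the kinase that first marks beta-catenin, had a log2 change of 0.30 (adjusted p = 0.00782) and, on normalized counts, of 0.11 (adjusted p = 0.0942). Of 12 genes of planar cell polarity, DAAM1 fell and DAAM2 and PRICKLE3 rose (log2 changes −0.37, 0.52 and 0.36, with adjusted p 0.00560, 0.0131 and 0.0157). Their share of 25% lay near the background. Of 4 other WNT receptors 0 were called by limma and 1 had an unadjusted p under 0.05, with PTK7 and ROR1 the most abundant (adjusted p = 0.414 and 0.225).

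Of 16 nuclear cofactors and corepressors 5 were called (31.25%, where 24.7% of all genes tested were). TLE3 and PYGO2 fell and TLE2 and CHD8 rose (log2 changes −0.42, −0.24, 0.46 and 0.28, with adjusted p 0.00455, 0.00801, 0.00877 and 0.0233). TLE genes encode corepressors that compete with beta-catenin for TCF factors, and PYGO2 encodes part of the beta-catenin coactivator complex. In terms of adjusted p, CHD8 lost its call without H/R replicate 1 (0.0593) and without H/R+BA replicate 2, 3 or 4 (0.0671, 0.0578 and 0.0591) and with no filter (0.0538). The fifth gene called, BCL9L, named here after its values were seen, was lower (−0.24, adjusted p = 0.0468) and lost its call without H/R replicate 1 or 2 (0.0597 and 0.0675) and without H/R+BA replicate 1, 2, 3 or 4 (0.0942, 0.101, 0.110 and 0.0726) and with no filter (0.107).

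Of 21 tested target genes of beta-catenin, 3 were higher and 0 lower (14.3%, where 13.7% of all genes tested were called higher). CCND2, a D-type cyclin, had 7.36 to 8.08 FPKM in H/R and 12.01 to 13.2 FPKM in H/R+BA (log2 change 0.62, adjusted p = 3.55e-04). TWIST1, a mesenchymal transcription factor, and CCND1, another D-type cyclin, had log2 changes of 0.52 and 0.28 (adjusted p = 0.0197 and 0.0299). In terms of adjusted p, TWIST1 lost its call without H/R+BA replicate 1 or 4 (0.0579 and 0.0561) and with no filter (0.0699). CCND1 lost its call without H/R replicate 2 (0.0551) and without H/R+BA replicate 1, 2 or 4 (0.0770, 0.0676 and 0.0720) and with no filter (0.0801).

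**Figure D4:**
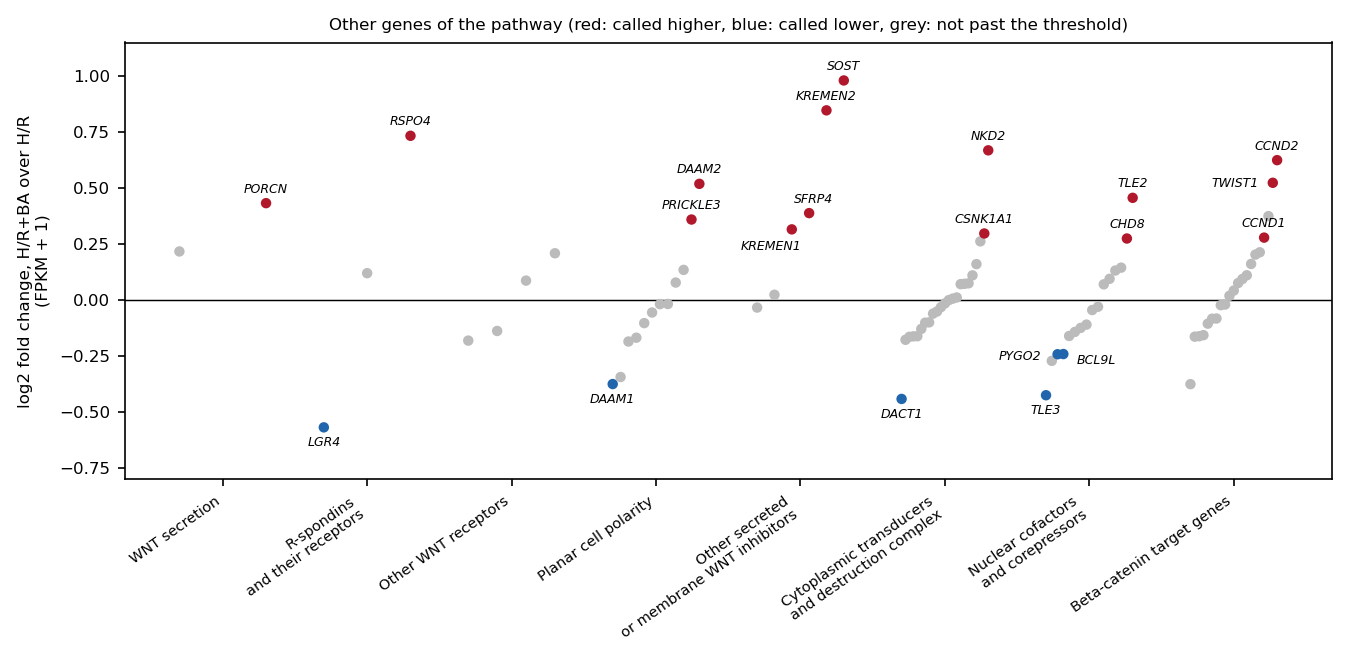
Log2 fold change (H/R+BA over H/R, FPKM + 1) of each tested gene of the 8 lists of other pathway genes, in order of its value within each list, with called genes named. The 4 called inhibitors all lie above 0, up to SOST at 0.98, and LGR4 at −0.57 is the lowest called gene.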

How the data were processed

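RNA sequencing of hiPS-CMs gave 8 libraries (4 H/R, 4 H/R+BA). Per the methods and the submitters' notes, the tools were Trimmomatic 0.39 for trimming, HISAT2 2.1.0 for mapping to GRCh38.p5, featureCounts 2.0.6 for counting and Cuffdiff 2.2.1 for FPKM. The gene annotation and the use of strand in counting are not given in the sources used here. Each library has FPKM, as normalized by the authors, and normalized counts in the deposited table. The latter are a signal unit as deposited, not raw counts: 74.8% to 76.5% of the values were whole multiples of 1 fragment (within 0.02), so whole reads were not recovered and no count model was used. A deposited sequencing summary gives the read count of each library and the percent of reads mapped (95.4% to 96.3%), and lists 9 other libraries, not used here. The authors' fold changes, p-values and 4 columns of group means were not used.

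All genes were fitted together by limma-trend (limma 3.58.1, R 4.3.3; pseudocount 1), which was tested on simulated data. FPKM keeps no counts, so counting error is not separated from the spread between libraries. Positions came from GENCODE 44 by gene ID (48 of 48 members) and promoters from RefSeq, both on GRCh38. The members and lists were chosen with earlier results of these data known. All members are accounted for, called members with each library's value. Of each other list, up to 4 called genes with the smallest p were named, or the 2 with the highest level where none was called. Alternatives were a pseudocount of 0.1, no filter, a filter of 10 normalized counts in every library, the normalized counts, median-ratio scaling, the replicate number as a block and leaving out each library.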

Additional observations from a re-analysis of the deposited data

How the results depend on the processing

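FZD1, FZD6 and WNT11 kept their direction and their call under all 14 alternatives. Over the 28 tested members and 14 alternatives, 365 of 392 values kept direction and side of the threshold, 5 lost the call, 10 gained it and 12 changed sign. On the deposited normalized counts 11 members were called (5 on FPKM). Among them were 4 ligands (1 on FPKM), 1 secreted inhibitor (0 on FPKM) and TCF7L2 (not called on FPKM). TCF7, counted here with the feedback genes, was called on both scales. Of the other pathway genes 33 were called on normalized counts (21 on FPKM). There the log2 change of LRP6 became −0.017 and that of ZNRF3 −0.064. The cause was not tested. A filter of 10 normalized counts gave 2 called ligands, since WNT4 entered the test. Leaving out 1 library gave 1 to 2 called ligands and 0 to 1 called secreted inhibitors. It moved the log2 change of DKK3 over −0.18 to 0.080, FZD7 over −0.11 to 0.045, LEF1 over −0.038 to 0.17 and TCF7L1 over −0.073 to 0.039. With the replicate number as a block, 0 feedback genes were called (TCF7 at an adjusted p of 0.05002) and 1 secreted inhibitor (DKK1, adjusted p = 0.0470). Libraries of the same number did not deviate together (correlations across genes 0.24, −0.24, −0.25 and −0.015), and the samples share only a number. Of the 21 other pathway genes called, 6 lost the call with no filter, 1 (KREMEN1) with the filter of 10 normalized counts and with median-ratio scaling, 1 (CSNK1A1) on normalized counts and 4 with the block (BCL9L, KREMEN1, SFRP4 and TWIST1, at adjusted p of 0.0706, 0.0638, 0.0762 and 0.0616). A count model was not run, since whole reads were not recovered. Genes below the filter were tested only under the other filters, where WNT4 was the 1 member added to the calls.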

Other observations

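Neighbouring ligand genes differed in level. In 4 places 2 WNT genes lie within 100 kb of each other. WNT3 and WNT9B, on opposite strands of chromosome 17, had 1.03 to 1.85 FPKM and 0 to 0.230 FPKM over the 8 libraries. Their outermost GENCODE bounds are 46 bases apart. Their RefSeq promoters lie farther apart, at chr17:46818693-46818942 for WNT3 and chr17:46851333-46851582 for WNT9B. WNT9A (2.13 to 3.15 FPKM) lies 59.1 kb from WNT3A (0 to 0.0252 FPKM) on chromosome 1. WNT10B (0.343 to 0.695 FPKM) lies 6586 bases from WNT1 (0 to 0.146 FPKM) on chromosome 12, and WNT10A (0.151 to 0.655 FPKM) lies 6618 bases from WNT6 (0.0136 to 0.102 FPKM) on chromosome 2. In each pair the lowest value of 1 gene lay above the highest of the other.

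Single libraries held many of the extremes among the members, and each such share is given with that over all 14334 genes tested. In H/R+BA, replicate 4 was highest within its group for 15 of the 28 tested members (53.6%; 22.4% of all genes), and replicate 1 was lowest for 13 (46.4%; 24.1%). In H/R, replicate 3, which had the fewest reads (39854257), was lowest for 13 (46.4%; 30.9%), and replicate 2 was highest for 9 and lowest for 9 (32.1% each; 26.05% and 30.5%). The coefficient of variation was larger in the H/R group for 21 of the 28 members (median 10.9% against 8.29%), as it was for 69.6% of all genes tested (median 11.0% against 7.95%).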
